A study of Mus musculus with 3 samples.

Results

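The 10 genes described here are Slc2a1, Hif1a, Pfkfb3, Hk1, Hk2, Pfkp, Aldoa, Pgk1, Pkm and Ldha, which serve glucose uptake and glycolysis, together with the transcription factor subunit HIF-1α. They were chosen by symbol, with earlier results of these data known, among 32285 genes counted in each of 3 single-cell RNA libraries of intimal cells from the mouse aortic arch. The symbols matched 11 rows of the gene table, because Aldoa is listed under 2 identifiers, and the second identifier had 0 UMIs in every library. All mice were wildtype C57BL/6J, 12 to 13 weeks old, with males and females pooled, and each library held the cells of 5 to 10 animals. There were 2 control libraries of mice given nothing and 1 library of mice injected intravenously with 30 ug of ultrapure LPS 18 hours before the tissue was taken. LPS, lipopolysaccharide, is the bacterial outer membrane component sensed by Toll-like receptor 4, and the comparison asked how the vessel lining and the cells within it changed after systemic exposure. All tissues were handled in the presence of actinomycin D, which blocks transcription, and digested briefly with collagenase D and DNase I. The controls are named replicates 1 and 2 in record order only, and the labels do not say how far the pools were separate experiments. The p-values thus rest on the spread between these libraries, which may be technical and was estimated with information from all genes.

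Glycolysis splits glucose into pyruvate in the cytosol and yields ATP without oxygen. Endothelial cells draw most of their ATP from it, and macrophages activated through Toll-like receptor 4 are known to raise it. HIF-1α is made continuously, is destroyed in the presence of oxygen, and when it persists it pairs with ARNT at hypoxia response elements near many glycolytic genes. Inflammatory signals can also raise the transcription of Hif1a itself.

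Slc2a1 encodes GLUT1, a basal glucose carrier of the plasma membrane (ENSMUSG00000028645, chr4:119108711-119137983, plus strand). Hif1a encodes the oxygen-regulated subunit HIF-1α (ENSMUSG00000021109, chr12:73901375-73947530, plus strand). Pfkfb3 encodes the enzyme that makes fructose 2,6-bisphosphate, an activator of phosphofructokinase (ENSMUSG00000026773, chr2:11471433-11554077, minus strand). Hk1 and Hk2 encode hexokinases, which trap glucose by phosphorylation (ENSMUSG00000037012, chr10:62268855-62379908, minus strand; ENSMUSG00000000628, chr6:82725025-82774454, minus strand). Pfkp encodes the platelet-type phosphofructokinase (ENSMUSG00000021196, chr13:6579768-6648777, minus strand), and Aldoa the aldolase that splits its product (ENSMUSG00000030695, chr7:126795234-126800751, minus strand). Pgk1 encodes phosphoglycerate kinase (ENSMUSG00000062070, chrX:106187100-106203699, plus strand), and Pkm the muscle-type pyruvate kinase (ENSMUSG00000032294, chr9:59656368-59679375, plus strand), both of which make ATP. Ldha encodes the lactate dehydrogenase subunit that favours lactate (ENSMUSG00000063229, chr7:46841475-46855627, plus strand). Positions are those of GENCODE M21 on GRCm38, the mm10 assembly named in the submitters' processing notes, and all 10 are protein-coding. Opposite-strand genes in the gene table overlap Slc2a1, Hif1a, Pfkfb3, Hk1, Hk2, Pfkp and Aldoa, and processed copies of some glycolytic genes exist elsewhere in the genome. The assignment of reads shared with those is not stated in the sources used here.

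The first listed promoter of each of the 6 members that passed a test in at least 1 cell class is shown because the HIF dimer is known to bind the core ACGTG. Each run holds 250 bases before and 50 bases after the RefSeq start (GRCm38.p6), 5′ to 3′ on the strand of the gene, and capitals mark ACGTG read on either strand, where the palindrome CACGTG counts on both.
Slc2a1, chr4:119108495-119108794, plus strand: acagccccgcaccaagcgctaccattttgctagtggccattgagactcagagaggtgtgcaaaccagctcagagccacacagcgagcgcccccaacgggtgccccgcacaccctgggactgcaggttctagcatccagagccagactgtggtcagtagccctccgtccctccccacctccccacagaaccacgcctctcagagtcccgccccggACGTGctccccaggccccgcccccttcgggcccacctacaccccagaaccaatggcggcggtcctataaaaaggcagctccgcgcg
Hif1a, chr12:73907617-73907916, plus strand: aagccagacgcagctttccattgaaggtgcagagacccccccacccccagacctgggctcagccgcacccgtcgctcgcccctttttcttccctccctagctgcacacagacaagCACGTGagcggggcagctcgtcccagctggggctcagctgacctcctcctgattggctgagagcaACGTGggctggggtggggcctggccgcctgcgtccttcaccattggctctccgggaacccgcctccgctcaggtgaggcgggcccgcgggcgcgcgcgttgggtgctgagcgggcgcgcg
Pfkfb3, chr2:11553880-11554179, minus strand: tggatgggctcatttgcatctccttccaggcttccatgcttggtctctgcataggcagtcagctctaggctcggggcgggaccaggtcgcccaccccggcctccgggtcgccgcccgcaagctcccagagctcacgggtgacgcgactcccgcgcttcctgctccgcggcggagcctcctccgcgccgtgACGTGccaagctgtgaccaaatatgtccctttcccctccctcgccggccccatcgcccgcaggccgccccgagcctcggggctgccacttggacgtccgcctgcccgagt
Hk2, chr6:82774405-82774704, minus strand: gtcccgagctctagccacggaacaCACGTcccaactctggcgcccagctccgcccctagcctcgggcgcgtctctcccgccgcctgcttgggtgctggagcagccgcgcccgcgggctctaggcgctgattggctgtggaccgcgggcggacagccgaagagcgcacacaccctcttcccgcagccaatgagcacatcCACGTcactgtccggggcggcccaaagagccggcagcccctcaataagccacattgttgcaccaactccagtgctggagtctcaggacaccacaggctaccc
Pgk1, chrX:106186850-106187149, plus strand: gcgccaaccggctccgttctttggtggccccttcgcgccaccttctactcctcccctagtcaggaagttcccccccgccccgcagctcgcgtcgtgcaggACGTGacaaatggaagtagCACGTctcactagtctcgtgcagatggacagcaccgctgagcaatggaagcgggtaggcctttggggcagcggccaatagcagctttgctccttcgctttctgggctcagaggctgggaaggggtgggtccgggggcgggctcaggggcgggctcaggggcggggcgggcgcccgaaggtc
Ldha, chr7:46845554-46845853, plus strand: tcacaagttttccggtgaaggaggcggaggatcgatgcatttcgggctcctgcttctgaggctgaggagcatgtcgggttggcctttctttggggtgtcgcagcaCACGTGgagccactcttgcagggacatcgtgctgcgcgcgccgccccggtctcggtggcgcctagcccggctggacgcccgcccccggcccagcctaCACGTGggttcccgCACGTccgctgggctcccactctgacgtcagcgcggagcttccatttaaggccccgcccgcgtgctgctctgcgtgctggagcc
The Ldha promoter held 5 matches, the Hif1a promoter 3, the Hk2 and Pgk1 promoters 2 each, and the Slc2a1 and Pfkfb3 promoters 1 each. Over all members, 11 of 16 listed promoters held ACGTG, and 9 of 10 genes had it in at least 1 of their promoters. Listed promoters 2 and 3 of Aldoa overlap and hold the same site, which is counted for both. The background below is per promoter, and no share per gene was computed. The motif was present in 19.6% of all 32851 promoters of the same length in that table, and 2 or more matches were present in 8.21%. The first listed promoters of Hk1, Pfkp, Aldoa and Pkm, which passed in no class, held 0 matches. Their later listed promoters did hold the motif, with 2 matches for Hk1, 2 for Pkm and 1 in each for Aldoa, while Pfkp had no other. Of the members that passed, the second listed promoter of Ldha held 0 matches and that of Pfkfb3 held 2. A relation to the response was not tested. The related core GCGTG is not marked above. With either core counted, 43.8% of all promoters held a match and 20.6% held 2 or more. A match is a stretch of letters, and no binding was measured.

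The libraries differed in quality. Both controls (replicates 1 and 2) and the LPS library held, in that order, 1269, 4813 and 6000 barcodes with 4940996, 20069697 and 21864072 UMIs. Haemoglobin transcripts took 44.0%, 7.91% and 25.2% of these, and Gm42418, which overlaps ribosomal RNA sequence, took 9.81%, 1.59% and 28.6%. Barcodes with at least 50% haemoglobin or 40% Gm42418 were set aside (4, 316 and 693, then 28, 0 and 3659), limits set after seeing the data, and 399, 2381 and 804 barcodes were clustered. None of the clustered barcodes was shared between libraries. UMIs were summed per library and class and tested in 4 classes, each with at least 20 cells in every library. Thymocyte-like cells also reached 20 in every library but were not tested. The endothelial-like class had 60, 105 and 232 cells in the same order, the mononuclear phagocyte-like class 79, 207 and 185, and the fibroblast-like class 20, 75 and 103. The lymphoid-like class of T, NK and innate lymphoid cells had 27, 286 and 41. The labelled intima was thus mixed, since thymocyte-like cells numbered 143, 1411 and 64 and smooth muscle-like cells 44, 246 and 0. Within every tested class, most control cells and most LPS cells lay in different sub-clusters. The LPS sub-clusters of the endothelial-like, phagocyte-like and fibroblast-like classes were led in part by Lcn2, Mt1, Mt2 or Saa3, genes of the acute phase and metal response. A changed level per class sum can come from more RNA of that gene per cell or from a different mix of cells in the class, and these cannot be told apart. No doublet caller was run.

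In endothelial-like cells the glucose carrier Slc2a1, Hif1a, Pgk1 and Pfkfb3 rose with LPS, and no member fell. These 4 were among 9 members tested, where 7.68% of all 8621 genes tested passed as higher and 6.66% as lower. Levels of tested genes in these classes are CPM, the UMIs of a gene per 1000000 UMIs of its class and library after TMM scaling. Summed markers, Gm42418, sub-clusters and the genes of the correlation lists are given in plain CPM, without that scaling. Each triplet gives control replicate 1 first, then control replicate 2, then LPS. Slc2a1 stood at 4.2, 9.17 and 53.1 CPM, from 1, 6 and 90 UMIs. The LPS value lay above both controls, whose counting intervals overlapped each other, and the fitted log2 fold change was 2.76 ± 0.61 (SE), a 6.78-fold rise (edgeR adjusted p = 0.000125). Hif1a stood at 79.7, 141 and 679.8 CPM, from 19, 92 and 1152 UMIs. It was again highest in the LPS library, with a log2 fold change of 2.57 ± 0.41 (SE), or 5.93-fold (edgeR adjusted p = 1.6e-08), and it was the only member called under every one of the 12 alternatives that could be run for this class. Pgk1, an ATP-making step of the pathway, stood at 37.8, 41.2 and 124 CPM and rose 3.09-fold, a log2 fold change of 1.63 ± 0.43 (SE) (edgeR adjusted p = 0.00239). Both controls lay close together and well under the LPS value in these class sums, while the LPS sub-clusters differed, as described below.

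Pfkfb3, which feeds phosphofructokinase its activator, stood at 83.9, 73.3 and 174 CPM in endothelial-like cells, a log2 fold change of 1.16 ± 0.43 (SE) (edgeR adjusted p = 0.0455). That call was lost in 7 of 12 alternatives, where the adjusted p reached 0.634. With haemoglobin, mitochondrial and ribosomal protein genes and Gm42418 left out of the sums, the other 3 calls held and Pfkfb3 missed the threshold at an edgeR adjusted p of 0.0582. Slc2a1 and Pgk1 missed it with DESeq2's Wald test (adjusted p = 0.405 and 0.438), and Slc2a1 also with limma-voom (adjusted p = 0.0837). The members that did not pass included the enzymes at the end of the pathway. Ldha, the lactate-forming enzyme, was at 159, 122 and 166 CPM (log2 fold change 0.26 ± 0.42 (SE)), and Pkm at 193, 263 and 287 CPM (0.32 ± 0.41 (SE)). Neither LPS value stood far from the higher control. Hk1 had 75.5, 56.5 and 104 CPM (0.70 ± 0.42 (SE)), and Pfkp had 25.2, 47.4 and 35.4 CPM, with the LPS value between the controls. Aldoa was the single member with its LPS value under both controls (35.3% of all genes), at 294, 394 and 234 CPM (-0.57 ± 0.42 (SE), edgeR adjusted p = 0.430). Hk2 was too low to test, with 1, 6 and 19 UMIs. The median log2 fold change of the 9 members tested was 0.70, beside 0.0063 over all genes tested, and 7 of the 9 had an LPS value above both controls, as had 38% of all genes.

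**Figure D1:**
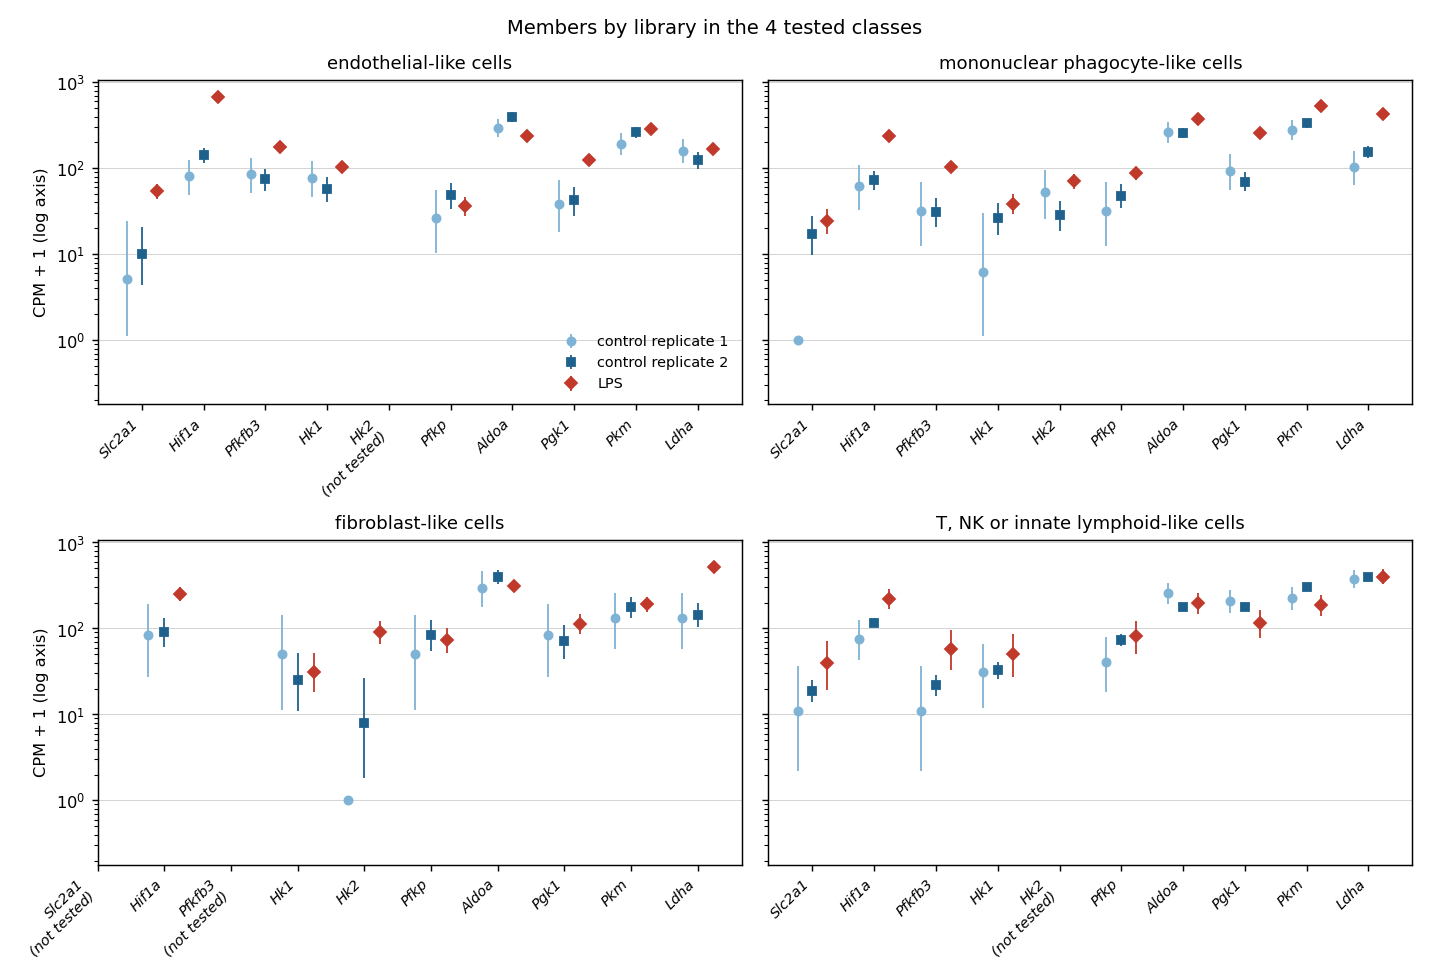
Levels of the tested members in the 4 tested classes, in CPM + 1 on a log axis, for control replicate 1 (light circles), control replicate 2 (dark squares) and the LPS library (red diamonds). Bars are exact Poisson 95% intervals, which cover counting error only, and a count of 0 is drawn without a bar. In endothelial-like cells the LPS point of Hif1a lies at 679.8 CPM, above controls at 79.7 and 141 CPM.

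Few other genes of the pathway passed as higher in endothelial-like cells. A missed threshold does not show that a gene stayed unchanged. Among the other glucose and lactate transporters 0 of 3 measured genes rose and 1 fell, Bsg, the chaperone of lactate carriers (353, 554 and 182 CPM, log2 fold change -1.33 ± 0.43 (SE)). Among the other glycolytic enzymes 0 of 9 rose and 1 fell, Bpgm, which makes 2,3-bisphosphoglycerate (126, 199 and 28.9 CPM, -2.52 ± 0.48 (SE)). The median log2 fold change was -0.88 over those 9 enzymes and -1.33 over the 3 transporters, beside 0.70 over the 9 members tested. Among HIF subunits and regulators 0 of 9 rose and 1 fell, Cited2, which competes with HIF-1α for its coactivator (105, 87.1 and 31.3 CPM, -1.59 ± 0.45 (SE)). Other known HIF targets gave 2 higher and 1 lower of 15. Angptl4, an inhibitor of lipoprotein lipase (4.2, 13.7 and 80.8 CPM, 2.88 ± 0.54 (SE)), and the vasodilator peptide gene Adm (0, 10.7 and 47.2 CPM, 2.62 ± 0.63 (SE)) rose. Mxi1, a repressor of the Myc network, fell (16.8, 30.6 and 3.54 CPM, -2.79 ± 1.01 (SE)).

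Of 8 genes for pyruvate entry into mitochondria, 1 rose in endothelial-like cells: Pdk4, the kinase that shuts pyruvate dehydrogenase, at 4.2, 4.58 and 40.1 CPM (3.12 ± 0.75 (SE)). None of 16 citric acid cycle, 7 pentose phosphate or 6 glycogen genes passed, and of 20 nuclear genes of the respiratory chain only Cycs, cytochrome c, did (42.0, 36.7 and 146 CPM, 1.92 ± 0.43 (SE)). Upstream regulators gave 4 higher and 0 lower of 9: Myc (8.39, 6.11 and 52.5 CPM, 2.93 ± 0.63 (SE)), the LPS receptor Tlr4 (1.43 ± 0.51 (SE)), and the inflammatory transcription factors Stat3 (1.28 ± 0.41 (SE)) and Nfkb1 (1.28 ± 0.43 (SE)). Each of the genes named had its LPS value outside both controls. Markers of other cells differed between these sums. The 7 erythroid markers together took 391, 4292 and 16649 CPM of all UMIs of the class, the 9 smooth muscle markers 449, 3174 and 492 CPM and the 12 phagocyte markers 33.0, 204 and 68.7 CPM, and all 4 haemoglobin genes rose. The 12 endothelial markers, all detected, took 6931, 8542 and 5242 CPM. Gm42418 took 139954, 17854 and 136691 CPM, lowest in control replicate 2, and 3 of 8 immediate-early genes of tissue handling rose. The part of these in the results was not tested, beyond the fit without haemoglobin genes and Gm42418 given above.

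**Figure D2:**
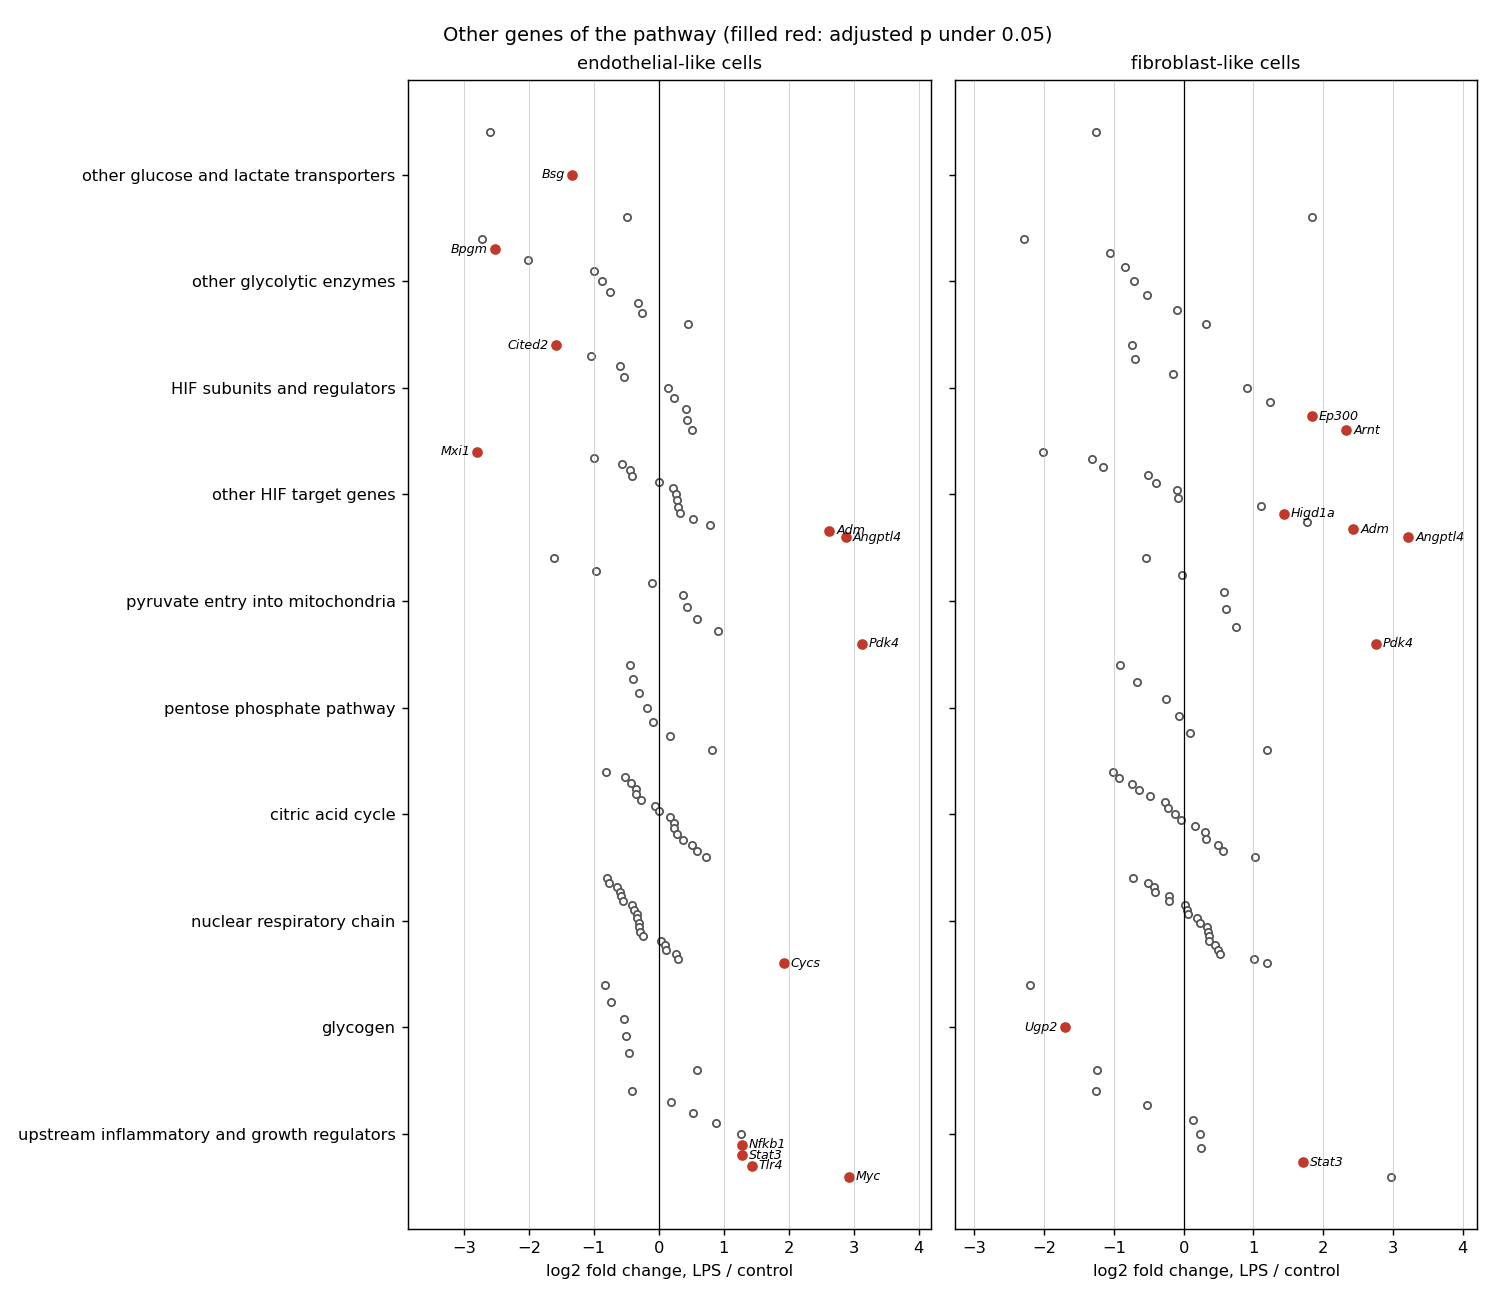
Fitted log2 fold change (LPS over control, horizontal axis) of the other measured genes of the pathway by list, in endothelial-like cells (left) and fibroblast-like cells (right). Filled red points passed at an adjusted p under 0.05 and are named, open points did not pass. Pdk4 lies farthest to the right in endothelial-like cells, at 3.12, and Angptl4 in fibroblast-like cells, at 3.22.

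In mononuclear phagocyte-like cells every member was higher in the LPS library than in either control, but 0 of 10 passed, and neither did any of the 8858 genes tested (0% in both directions, smallest adjusted p = 0.0618). Among all genes the LPS value lay above both controls in 36.4% and below both in 31.4%. Before adjustment 973 genes had a p under 0.05, 533 of them higher (6.02% of genes), and 4 members were among these. Hif1a was at 62.0, 71.4 and 237 CPM, from 12, 62 and 335 UMIs, with a log2 fold change of 1.80 ± 0.45 (SE) (unadjusted p = 0.00736, edgeR adjusted p = 0.240). Pfkfb3 was at 31.0, 29.9 and 102 CPM (1.75 ± 0.44 (SE), edgeR adjusted p = 0.240). For both genes the 2 controls lay within each other's counting interval. Pgk1 was at 93.1, 69.1 and 259 CPM (1.71 ± 0.47 (SE), edgeR adjusted p = 0.283), and Ldha at 103, 154 and 426 CPM, from 20, 134 and 604 UMIs (1.70 ± 0.49 (SE), edgeR adjusted p = 0.310). The LPS intervals of these 4 genes did not reach those of either control.

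The other 6 members had smaller fitted differences in phagocyte-like cells. Pfkp was at 31.0, 47.2 and 86.8 CPM (1.06 ± 0.46 (SE)), Hk1 at 5.17, 25.3 and 37.4 CPM (0.96 ± 0.69 (SE)) and Hk2 at 51.7, 27.6 and 69.2 CPM (0.95 ± 0.52 (SE)). With 1 control left out, Hk1 ran from 0.51 to 2.33 and Hk2 from 0.34 to 1.25. The pyruvate kinase Pkm was at 279, 334 and 534 CPM (0.79 ± 0.48 (SE)) and Aldoa at 264, 257 and 377 CPM (0.54 ± 0.47 (SE)). Slc2a1 had 0, 14 and 33 UMIs and 0, 16.1 and 23.3 CPM, so control replicate 2 and the LPS library differed little and the difference rests on control replicate 1: without it the log2 fold change was 0.47, and 3.37 without control replicate 2. The median over the 10 members was 1.05, beside -0.040 over all genes. The call depended on the fit: 3 members passed with limma-voom, 4 without the filter on low counts, 2 with cells gated on marker UMIs and 0 with DESeq2, where 291, 502, 445 and 98 genes passed in all. This class had a prior of 4.79 degrees of freedom for its spread, against an infinite prior in the other 3 classes. In the other lists, 0 genes passed, and the median log2 fold change of 10 other glycolytic enzymes was 0.35. The 12 phagocyte markers took 15493, 18511 and 8555 CPM, the 8 neutrophil markers 18.4, 18.9 and 584 CPM and the 9 smooth muscle markers 409, 4699 and 402 CPM, and the part of these in the members' values was not tested.

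In fibroblast-like cells Hk2, Ldha and Hif1a rose and no member fell, 3 of the 8 members tested, where 8.06% of 5396 genes passed as higher and 5.26% as lower. Hk2, the inducible hexokinase, had 0, 2 and 44 UMIs and 0, 6.99 and 89.6 CPM. Both controls were near the counting floor, the ratio of LPS to pooled controls by counts was 12.3 (95% counting interval 3.22 to 105), and the edgeR adjusted p was 0.000742. The fitted log2 fold change was 3.88 ± 0.94 (SE), 2.88 without control replicate 1, and 7.35 and 7.57 with a mitochondrial limit of 10% and with the marker gate. It was called in 10 of 11 alternatives, and DESeq2 gave it no adjusted p. Ldha was at 131, 143 and 513 CPM, from 8, 41 and 252 UMIs. The controls agreed within counting error and the LPS value was 3.68-fold higher, a log2 fold change of 1.88 ± 0.47 (SE) (edgeR adjusted p = 0.000976). Hif1a was at 81.9, 90.8 and 253 CPM, with a log2 fold change of 1.51 ± 0.48 (SE) (edgeR adjusted p = 0.0159). Its call was lost in 4 of 11 alternatives, at adjusted p-values of 0.0521 without the filter on low counts, 0.0879 with free RNA subtracted, 0.0982 with a mitochondrial limit of 25% and 0.626 with DESeq2, and Ldha was lost with DESeq2 alone (0.184).

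The remaining members of fibroblast-like cells did not pass. Pgk1 was at 81.9, 69.9 and 112 CPM (0.61 ± 0.53 (SE)), Pkm at 131, 178 and 192 CPM (0.23 ± 0.46 (SE)) and Aldoa at 295, 395 and 309.7 CPM (-0.19 ± 0.46 (SE)). The fitted change of Pkm was 1.23 with free RNA subtracted and that of Pgk1 1.41 at a mitochondrial limit of 10%, where neither passed. For Pfkp (49.2, 83.8 and 73.3 CPM) and Hk1 (3, 7 and 15 UMIs) the LPS value lay between the controls. Slc2a1 and Pfkfb3 were too low to test, with 1, 2 and 14 and 2, 7 and 19 UMIs. The members' median was 0.42, beside 0.038 over all genes, and 5 of 8 had an LPS value above both controls, as had 39.8% of genes. Around them, HIF's partner subunit Arnt (32.8, 14.0 and 91.7 CPM, 2.33 ± 0.75 (SE)) and the coactivator Ep300 (16.4, 38.4 and 120.2 CPM, 1.83 ± 0.61 (SE)) rose, 2 of 7 HIF subunits and regulators. Other HIF targets gave 3 higher and 0 lower of 12: Angptl4 (32.8, 69.9 and 562 CPM, 3.22 ± 0.50 (SE)), Adm (213, 297 and 1424 CPM, 2.43 ± 0.44 (SE)) and Higd1a, a mitochondrial membrane protein (1.43 ± 0.50 (SE)). Pdk4 was 1 higher of 6 genes for pyruvate entry (32.8, 10.5 and 104 CPM, 2.75 ± 0.76 (SE)), Stat3 1 higher of 7 upstream regulators (1.70 ± 0.47 (SE)), and Ugp2, which makes UDP-glucose, 1 lower of 3 glycogen genes (-1.70 ± 0.50 (SE)). None of 7 other glycolytic enzymes, 15 citric acid cycle or 20 respiratory chain genes passed. The median log2 fold change of those 7 enzymes was -0.71. Erythroid markers took 532, 316 and 13392 CPM and fibroblast markers 32647, 29866 and 16314 CPM of the class, and Gm42418 took 166252, 18727 and 167433 CPM. With haemoglobin, mitochondrial and ribosomal protein genes and Gm42418 left out, Hk2, Ldha and Hif1a were still called.

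In lymphoid-like cells Hif1a alone passed, 1 of 9 members tested, where 6.29% of 5439 genes passed as higher and 5.04% as lower. It was at 74.5, 116 and 221 CPM, from 15, 258 and 58 UMIs, with a log2 fold change of 1.13 ± 0.38 (SE) (edgeR adjusted p = 0.0278). The call was lost in 8 of 11 alternatives, and with free RNA subtracted the log2 fold change was 0.72 (edgeR adjusted p = 0.147). Ldha, at 378, 397 and 401 CPM, gave a log2 fold change of 0.046 ± 0.42 (SE), which was -0.69 at a mitochondrial limit of 10%, 0.40 at 25%, -0.82 with list genes kept in clustering and -0.67 with no Gm42418 limit, passing in none of these. Pgk1 (209, 175 and 114 CPM, -0.72 ± 0.41 (SE), edgeR adjusted p = 0.304) and Pkm (224, 304 and 187 CPM, -0.52 ± 0.41 (SE)) had LPS values under both controls without passing. Slc2a1 (2, 40 and 10 UMIs, 1.29 ± 1.26 (SE)), Pfkfb3 (2, 47 and 15 UMIs, 1.67 ± 0.94 (SE)) and Hk1 (6, 71 and 13 UMIs, 0.66 ± 0.70 (SE)) had LPS values above both on few molecules. Pfkp was at 39.8, 73.1 and 80.1 CPM and Aldoa at 258, 176 and 198 CPM, and Hk2 was too low to test (1, 15 and 5 UMIs). An LPS value above both controls was seen in 6 of 9 members, against 38.6% of all genes, and one below both in 2, against 39.8%. The members' median was 0.36, beside -0.048 over all genes.

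Of the other glycolytic enzymes in lymphoid-like cells, 0 of 6 rose and 3 fell: Ldhb, the other lactate dehydrogenase subunit, Eno1, an enolase, and Tpi1, triosephosphate isomerase. The median log2 fold change of those 6 was -1.22. Ldhb had 37, 569 and 3 UMIs, and its level in controls was 24.6 times that with LPS by counts (95% counting interval 8.39 to 119.8). Eno1 was at 189, 257 and 61.1 CPM (-1.90 ± 0.45 (SE)) and Tpi1 at 79.5, 108 and 30.5 CPM (-1.67 ± 0.55 (SE)). The pentose phosphate enzyme gene Tkt fell as 1 of 6 (-1.25 ± 0.43 (SE)). The HIF targets Bhlhe40, a transcriptional repressor (14.9, 13.0 and 141 CPM, 3.39 ± 0.55 (SE)), and Ddit4, an inhibitor of mTOR signalling (1.69 ± 0.43 (SE)), rose, 2 of 9. Txnip, which limits glucose uptake (124, 176 and 1042 CPM, 2.75 ± 0.41 (SE)), and Stat3 (1.53 ± 0.41 (SE)) rose, 2 of 7 upstream regulators. Gm42418 took 45281, 8480 and 121806 CPM. The class also differed in makeup: the 10 thymocyte markers took 1401, 2494 and 434 CPM, the 6 cycling markers 1194, 1141 and 126 CPM, and 6 of 7 immediate-early genes rose. Their part in these results was not tested.

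**Figure D3:**
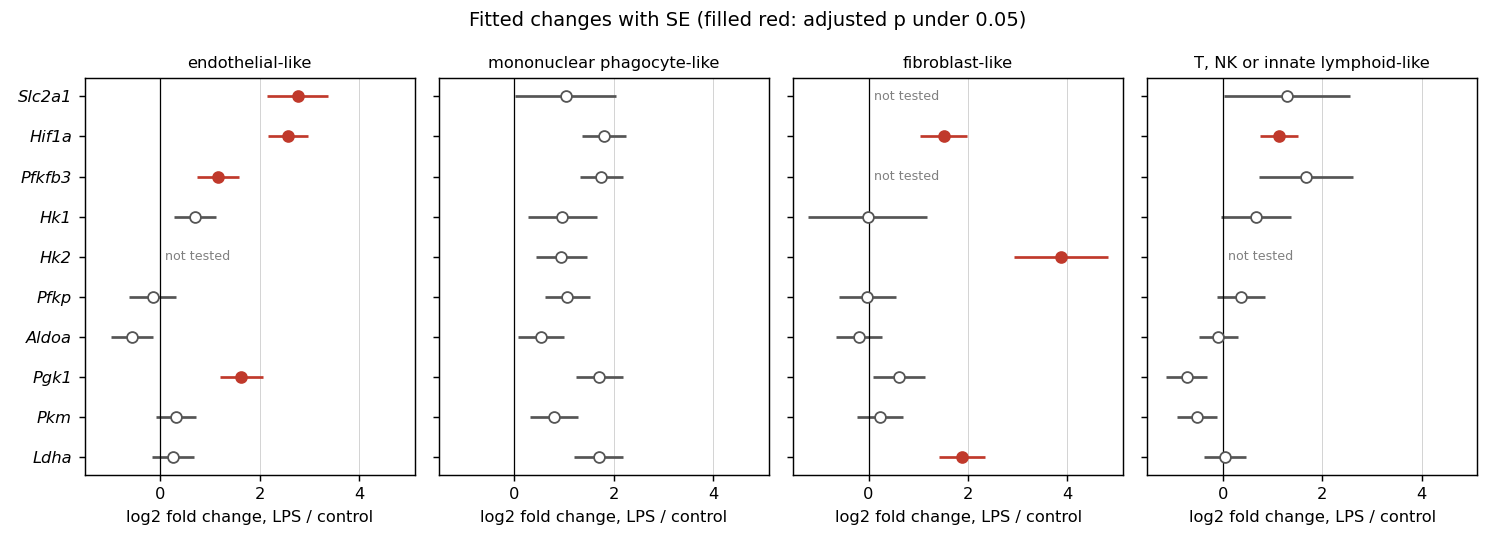
Fitted log2 fold change (LPS over control) with its SE for each member in the 4 tested classes. Filled red points passed at an adjusted p under 0.05: 4 for the endothelial-like class, 3 for the fibroblast-like, 1 for the lymphoid-like and 0 for the phagocyte-like, and members too low to test are marked.

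Whether the response to LPS differed between classes was tested as an interaction over all 4 classes, with library as a block. No member passed against endothelial-like cells in any of the 3 pairs, where 0.941% of 10092 genes passed for phagocyte-like, 0.238% for fibroblast-like and 1.27% for lymphoid-like cells at an edgeR adjusted p under 0.05, and 7.36%, 4.92% and 9.78% had an unadjusted p under 0.05. The nearest was Pgk1 in lymphoid-like cells, whose log2 response was -2.35 ± 0.69 (SE) against that of endothelial-like cells (unadjusted p = 0.000651, edgeR adjusted p = 0.0509). The fitted change of Pgk1 was above 0 in endothelial-like and below 0 in lymphoid-like cells, and their difference missed the threshold. The fitted response of Ldha was larger in phagocyte-like cells, by 1.49 ± 0.66 (SE) (unadjusted p = 0.0242, edgeR adjusted p = 0.504), and in fibroblast-like cells, by 1.66 ± 0.69 (SE) (unadjusted p = 0.0165, edgeR adjusted p = 0.738). That of Hk2 was larger in fibroblast-like cells, by 3.38 ± 1.33 (SE) (unadjusted p = 0.0112, edgeR adjusted p = 0.662), and that of Hif1a in lymphoid-like cells differed by -1.43 ± 0.66 (SE) (unadjusted p = 0.0295, edgeR adjusted p = 0.402). For Slc2a1 the difference of phagocyte-like from endothelial-like cells was -1.70 ± 1.05 (SE), with a 95% interval of -3.76 to 0.36, and for Hif1a it was -0.70 ± 0.65 (SE), with an interval of -1.98 to 0.57. These intervals span differences of several fold, so a missed threshold does not show equal responses.

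**Figure D4:**
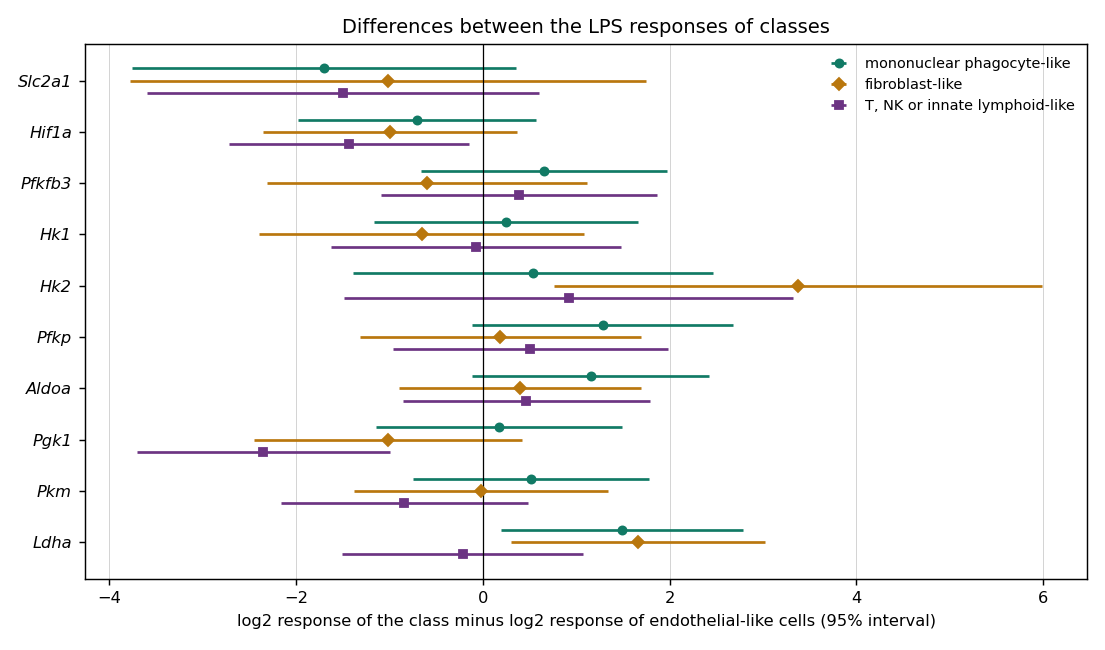
Difference of each class's log2 response to LPS from that of endothelial-like cells, by member, with 95% intervals. The interval of Pgk1 in lymphoid-like cells runs from -3.70 to -1.0, that of Ldha in fibroblast-like cells from 0.30 to 3.02, and most others cover 0.

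Across all named classes the levels are plain CPM without TMM scaling and carry no test. Hif1a was highest in endothelial-like cells of the LPS library (608 CPM), followed by B-like cells of that library (395 CPM, 19 cells), and their exact Poisson 95% intervals did not overlap. Phagocyte-like (232 CPM), adipocyte-like (212 CPM, 17 cells), fibroblast-like (205 CPM) and lymphoid-like cells (198 CPM) of the LPS library followed, with overlapping intervals, then thymocyte-like (156 CPM), mesothelial-like (151 CPM) and neutrophil-like cells (106 CPM). In controls no named class with at least 15 cells exceeded 150.3 CPM, the value of endothelial-like cells in control replicate 2. Slc2a1 likewise was highest in endothelial-like cells with LPS (47.5 CPM), ahead of lymphoid-like (34.2 CPM) and neutrophil-like cells (29.8 CPM), whose intervals overlapped with it. In thymocyte-like cells Slc2a1 was at 2.35, 10.5 and 2.95 CPM.

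Ldha and Pgk1 had another order. The highest values were in the 17 adipocyte-like cells of the LPS library, at 764 and 467 CPM from 54 and 33 UMIs. Ldha followed in phagocyte-like (418 CPM) and fibroblast-like cells (417 CPM) with LPS and in lymphoid-like cells of all libraries (335, 408 and 359 CPM), whose intervals overlapped. Thymocyte-like cells had 342, 242 and 109 CPM of Ldha and 158, 146 and 67.9 CPM of Pgk1, with the LPS value lowest in both. They also had 92.7, 145 and 32.5 CPM of Aldoa. Thymocyte-like cells were named in all 3 libraries but were not tested. Neutrophil-like cells, 32 in the LPS library, held 493 CPM of Pkm and 154 CPM of Ldha. Smooth muscle-like cells were found in the controls only, with Hif1a at 143 and 138 CPM.

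**Figure D5:**
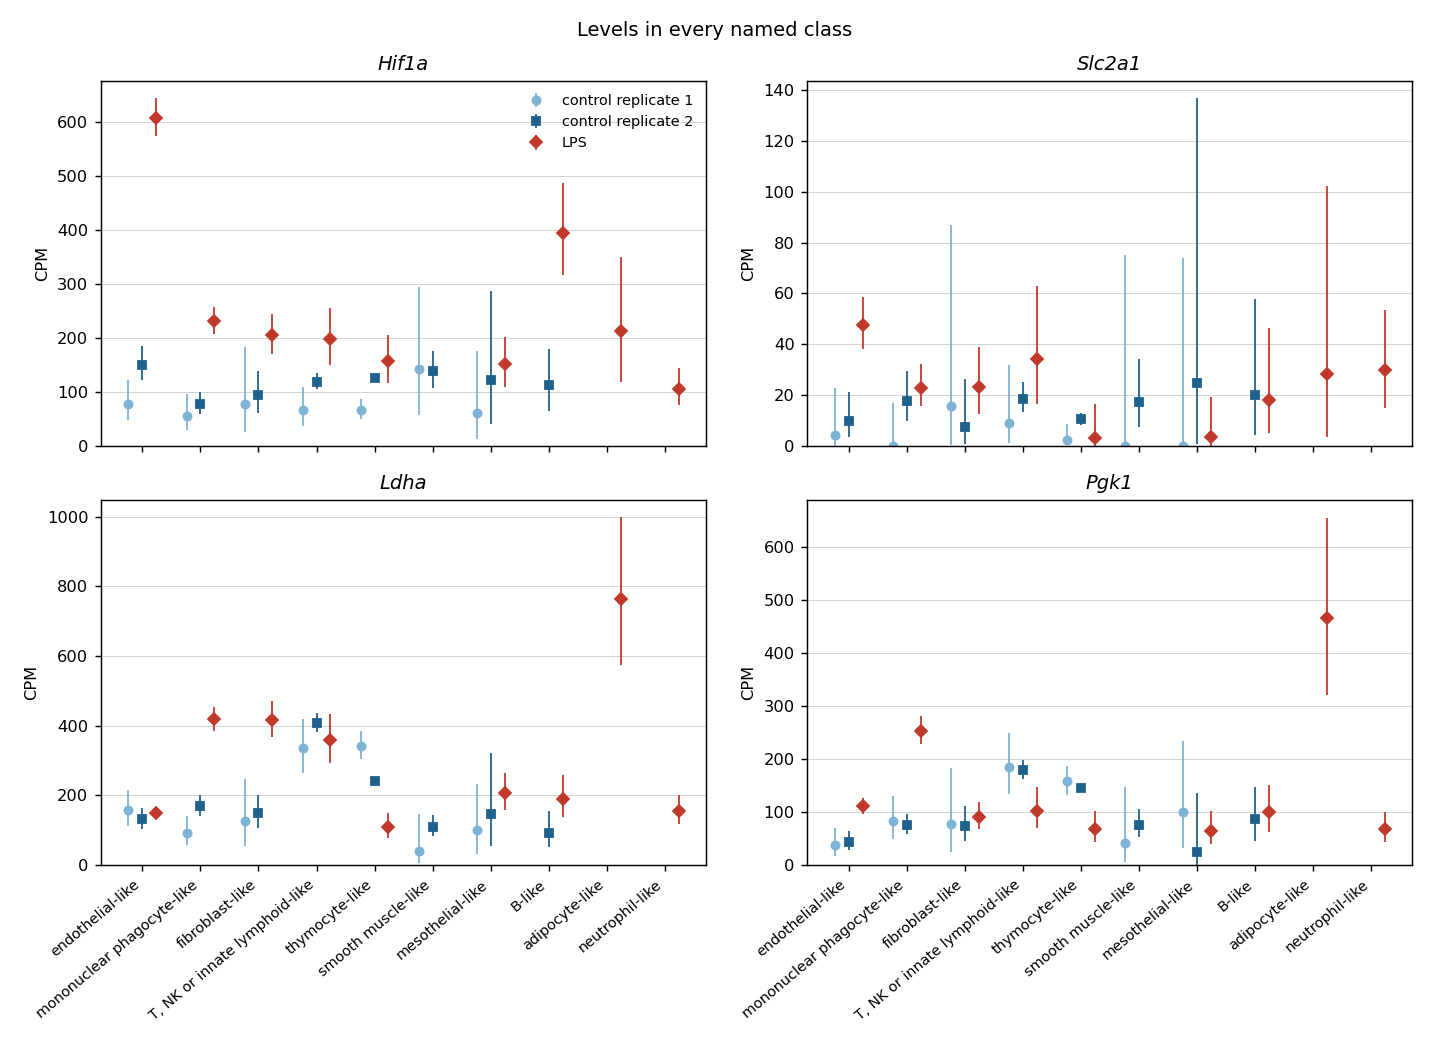
Levels of Hif1a, Slc2a1, Ldha and Pgk1 in every named class with at least 15 cells of a library, in plain CPM, with Poisson intervals (exact, 95%). Hif1a and Slc2a1 peak in endothelial-like cells of the LPS library, at 608 and 47.5 CPM, while Ldha and Pgk1 peak in adipocyte-like cells of that library, at 764 and 467 CPM.

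Sub-clusters show how the members varied inside a class and are given per library as a description. Hif1a ranged from 496 to 642 CPM over the 4 endothelial-like sub-clusters of the LPS library, and from 17.7 to 174 CPM in those of the controls with at least 15 cells, with no overlap. Slc2a1 was uneven: 68.6 CPM in the deepest LPS sub-cluster, led by Lcn2, Mt2 and the adhesion gene Selp, against 5.30 to 26.3 CPM in the other 3. Its control sub-clusters lay between 0 and 17.6 CPM, which overlapped the range of those 3. The deepest LPS sub-cluster, of 59 cells, held 74 of the 90 LPS UMIs of Slc2a1. Pfkfb3 was highest in an LPS sub-cluster with the interferon-induced genes Gbp4, Iigp1 and Rsad2 among its leading genes, at 302 CPM, and lay between 100.7 and 139 CPM in the other 3. Control sub-clusters ranged from 52.7 to 126 CPM of Pfkfb3, which overlapped the range of those 3. Pgk1 ranged from 55.8 to 138 CPM in the 4 LPS sub-clusters and from 32.9 to 70.7 CPM in those of the controls. Its LPS values of 55.8 and 65.4 CPM lay within the control range. Aldoa was under every control sub-cluster in all 4 LPS sub-clusters, at 122 to 250.1 CPM against 318 to 518 CPM. In fibroblast-like cells of the LPS library Ldha was concentrated in 1 sub-cluster, at 557 CPM against 154 and 203 CPM, while Hk2 was found in all 3, at 54.6, 63.4 and 133 CPM. That sub-cluster, of 41 cells, held 211 of the 252 LPS UMIs of Ldha. Control sub-clusters with at least 15 cells, all of control replicate 2, had 94.6 and 236 CPM of Ldha and 0 and 18.9 CPM of Hk2. The Ldha values of 154 and 203 CPM lay between these control values.

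Phagocyte-like sub-clusters of the LPS library differed in the same genes. Pgk1 was at 454 CPM in 18 cells led by Lyz2 and Saa3 with the monocyte gene Ly6c2, a sub-cluster that also held 8 and 6 control cells, at 266 CPM in 15 cells led by Saa3 and Ccl5, at 235 CPM in cells led by Saa3 and Cxcl13, and at 112 CPM in 96 cells led by Ccl5. Control sub-clusters ranged from 16.1 to 75.1 CPM, under all 4 of these. Pkm was highest in the Ly6c2 cells, at 723 CPM, and in the 96 cells it was at 236 CPM, within the control range of 200.4 to 368 CPM. Hif1a had another order, with 308 CPM in the Saa3 and Cxcl13 cells, 236 CPM in the 96 cells and 118 CPM in the Ly6c2 cells. Among lymphoid-like cells Ldha and Pgk1 were highest in a control sub-cluster that had the proliferation genes Stmn1 and Pclaf and the thymocyte gene Dntt among its leading genes, at 705 and 318 CPM in control replicate 2.

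The share of cells with at least 1 UMI gave the same order for Hif1a at equal depth. With each cell thinned to 1000 UMIs, 0 of 46 endothelial-like cells of control replicate 1 had a Hif1a UMI, which allows a share of up to 6.52% by a limit of 3 counts and 7.71% by the exact Clopper-Pearson bound, and 14 shallower cells were left out. At 500 UMIs, which kept all cells, it was 3 of 60 (5.00%, 1.04 to 13.9%). In control replicate 2 it was 16 of 105 cells (15.2%, exact Clopper-Pearson 95% interval 8.97 to 23.6%) and in the LPS library 86 of 232 (37.1%, 30.8 to 43.6%). Unthinned shares were 16.7%, 42.9% and 78.0%, at median depths of 1406, 3479 and 4104 UMIs. The depth was also set with haemoglobin genes left out, an alternative chosen after seeing the data, to compare endothelial-like cells with barcodes of at least 50% haemoglobin, a sign of red blood cells, which should hold little Hif1a message. At 1000 other UMIs, 2 of 46 endothelial-like cells of control replicate 1 had a Hif1a UMI. In control replicate 2 the share was 12.4% (6.76 to 20.2%) of endothelial-like cells and 11.9% (8.43 to 16.2%) of 294 haemoglobin-rich barcodes, so the control share did not stand above that background. In the LPS library it was 38.4% (32.1 to 45%) of endothelial-like cells and 27.7% (24.3 to 31.2%) of 669 haemoglobin-rich barcodes, and these intervals did not overlap. Before thinning, the median of other UMIs was 3297 against 1180 for control replicate 2 and 4086 against 1491 for the LPS library. Slc2a1 was seen in 0 of 46, 0 of 105 and 8 of 232 thinned cells and in 1.67%, 5.71% and 20.3% of unthinned ones, too few for an order at equal depth. Ldha in fibroblast-like cells was seen in 0 of 12, 15 of 75 and 22 of 103 thinned cells, which is 20% (11.6 to 30.8%) in control replicate 2 and 21.4% (13.9 to 30.5%) in the LPS library, with overlapping intervals. Unthinned, the shares were 15%, 41.3% and 55.3%.

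Over the 12 sums of 4 classes and 3 libraries, the genes most like Slc2a1 by Pearson correlation of log2(CPM + 10) were Azi2 (r = 0.92), Larp1 (0.89) and Mapk6 (0.88), among 6734 genes with a mean of at least 20 CPM. Hif1a ranked 9 in that order, and 45 by Spearman's correlation. Those most like Hif1a were the interferon-induced GTPase gene Gbp6 (0.93), the interleukin 4 receptor gene Il4ra (0.92) and the prostaglandin synthase gene Ptgs2 (0.92). In plain CPM of endothelial-like cells, Gbp6 was at 16.5, 37.6 and 378 CPM, Il4ra at 12.4, 29.4 and 326 CPM and Ptgs2 at 12.4, 4.90 and 356 CPM, highest with LPS as Hif1a was. Among members Slc2a1 was the most like Hif1a (0.83), followed by Pfkfb3 (0.71) and Hk1 (0.56), while Pgk1 (0.26), Ldha (0.29), Hk2 (0.23), Pkm (0.20) and Aldoa (-0.14) were not close. The 12 points share libraries and depth, and with Spearman's correlation only 1 of the 3 genes stayed on each list (Azi2 and Ptgs2).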

How the data were processed

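The deposited values are raw UMI counts. The submitters' processing notes name Cell Ranger 3.1, the mm10 build, R 4.2.1 and Seurat 4.2.0. Annotation release, barcode selection and strand setting: not given in the sources used here. The 10 members, the pathway lists, the markers and the tests were chosen with earlier results of these data known.

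Barcodes were kept from 500 UMIs and 300 genes upwards if mitochondrial genes took no more than 15%, haemoglobin-rich and Gm42418-rich ones were set aside by limits chosen after seeing the data, and the rest were clustered without library integration and without the metabolic lists (scanpy 1.11.5, leidenalg 0.10.2: 2000 variable genes, 30 components, 15 neighbours, resolution 1.0, with sub-clustering at 0.5). A cluster was named from its markers: a score at least 1.5 (log2) over background and 0.5 over the next class, and at least 3 markers each in 10% of its cells. In all, 71 clustered barcodes stayed unnamed.

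UMIs were summed per class and library and tested with edgeR 4.0.16 (quasi-likelihood, TMM, filterByExpr, Benjamini-Hochberg at 0.05) in R 4.3.3, with 1 residual degree of freedom, so the LPS library was assumed to vary like the controls. In the endothelial-like, fibroblast-like and lymphoid-like classes the prior for the spread was infinite. A gene's spread there was set from all genes and not from its own 2 controls. All member calls in the main fits came from these classes. SE is the absolute log2 fold change over the square root of F. A single-value permutation test of 2 libraries against 1 could not pass, so none is given. DESeq2 1.42.0, limma 3.58.1 and other filters were alternatives. On simulated data with known changes, 2-fold changes were recovered in 4.41% (endothelial-like), 0% (phagocyte-like), 2.94% (fibroblast-like) and 2.94% (lymphoid-like) of cases. For 4-fold changes these shares were 57.6%, 28.8%, 42.4% and 37.9%, in the same order. A missed threshold therefore does not show an unchanged gene. Intervals are exact 95% Poisson, or Clopper-Pearson for shares (scipy 1.17.1), and cover counting error only.

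All members were named in every class. Of each list, at most 4 genes per class were named, those that passed with the largest fold change and an LPS value outside both controls. Gene identifiers matched GENCODE M21 for 32158 of 32285 genes. Classes with fewer than 20 cells in any library were not tested, nor was the thymocyte-like class, which reached that number. From the list of other HIF targets 1 gene is not reported here and is left out of that list's counts.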

Additional observations from a re-analysis of the deposited data

Results flagged for a closer look

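For 5 genes of the pathway lists the log2 response to LPS of lymphoid-like cells (T, NK or innate) differed from that of endothelial-like cells by the interaction term, and values are given as lymphoid-like minus endothelial-like, with levels in control replicate 1, control replicate 2 and LPS. Txnip differed by 3.16 ± 0.70 (SE; edgeR adjusted p = 0.00223), with 124, 176 and 1042 CPM in lymphoid-like cells (log2 fold change 2.75 ± 0.41 (SE)) and 466, 721 and 449.7 CPM in endothelial-like cells (log2 fold change -0.41 ± 0.41 (SE)). Bhlhe40 differed by 4.24 ± 0.73 (SE; edgeR adjusted p = 1.67e-05), with 14.9, 13.0 and 141 CPM in lymphoid-like cells (log2 fold change 3.39 ± 0.55 (SE)) and 126, 93.2 and 53.1 CPM in endothelial-like cells (log2 fold change -1.0 ± 0.43 (SE)). Cited2 differed by 2.55 ± 0.68 (SE; edgeR adjusted p = 0.0241), with 89.4, 79.4 and 160.3 CPM in lymphoid-like cells (log2 fold change 0.95 ± 0.41 (SE)) and 105, 87.1 and 31.3 CPM in endothelial-like cells (log2 fold change -1.59 ± 0.45 (SE)). Myc differed by -3.37 ± 0.95 (SE; edgeR adjusted p = 0.0356), with 54.7, 49.8 and 38.2 CPM in lymphoid-like cells (log2 fold change -0.43 ± 0.62 (SE)) and 8.39, 6.11 and 52.5 CPM in endothelial-like cells (log2 fold change 2.93 ± 0.63 (SE)). Epas1 differed by 2.59 ± 0.73 (SE; edgeR adjusted p = 0.0362), with 9.94, 42.1 and 84.0 CPM in lymphoid-like cells (log2 fold change 1.33 ± 0.55 (SE)) and 629.5, 547 and 284 CPM in endothelial-like cells (log2 fold change -1.04 ± 0.42 (SE)). Epas1 encodes HIF-2α and passed in neither class alone, and it is named here after its values were seen. Haemoglobin genes and the immediate-early genes Fos and Dusp1 differed by the same test. No member differed by this test. The makeup of the lymphoid-like class differed between libraries, as its thymocyte and cycling markers show, and the part of that in these differences was not tested.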

How the results depend on the processing

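Over the alternatives with a test, 344 of 398 values kept their direction and side of the threshold, 23 lost a call, 15 gained one or moved a count above 1.5 times, and 16 reversed, and the cause was not tested. DESeq2 gave no adjusted p to 7 more. The limits for Gm42418 of 20% and of none were chosen after seeing the data. With DESeq2's Wald test 1 member and 291 genes were called in endothelial-like cells, 0 and 140 in fibroblast-like cells (where Hk2 had no adjusted p), 0 and 60 in lymphoid-like cells, and 98 genes in phagocyte-like cells. A mitochondrial limit of 10% gave 718 genes in endothelial-like cells. In phagocyte-like cells, where 0 were called, limma-voom gave 3 members and 291 genes, no filter on low counts 4 and 502, a mitochondrial limit of 25% 1 and 606, the marker gate 2 and 445, list genes kept in clustering 307 genes, haemoglobin, mitochondrial and ribosomal protein genes and Gm42418 left out 216 genes, free RNA subtracted 2 and 401, a Gm42418 limit of 20% 337 genes and no such limit 2 and 433. In lymphoid-like cells limma-voom called 2 members, while no filter, mitochondrial limits of 10% and 25%, list genes kept, free RNA subtracted and Gm42418 limits of 20% and none each called 0, and 393 genes passed at the 25% limit and 78 with list genes kept.

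Some values that did not pass changed sign. Pfkp in endothelial-like cells was 0.056 at a mitochondrial limit of 25% and 0.17 with no Gm42418 limit. In fibroblast-like cells Hk1 was 0.19 with limma-voom, 0.11 with no filter and 0.053 with no Gm42418 limit, Pfkp was 0.062 with DESeq2, 0.065 with no filter and 0.049 at the 10% limit, Aldoa was 0.00022 at the 10% limit and Pkm was -0.051 at the 25% limit. In lymphoid-like cells Aldoa was 0.37 at the 25% limit, 0.041 with list genes kept and 0.028 with free RNA subtracted, and Ldha was -0.0081 with no filter, -0.69 at the 10% limit, -0.82 with list genes kept and -0.67 with no Gm42418 limit. Leaving out 1 control left 1 library against 1 with no test. Log2 fold changes then ran from -0.45 to 0.40 for Pfkp and from -0.0056 to 0.38 for Ldha in endothelial-like cells, from -0.70 to 0.17 for Hk1, from -0.29 to 0.39 for Pfkp and from -0.014 to 0.39 for Pkm in fibroblast-like cells, and from -0.35 to 0.22 for Aldoa in lymphoid-like cells.

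The thinned share of Hif1a in endothelial-like cells became 16.7%, 42.9% and 78.0% without thinning and 21.6% in the LPS library at 500 UMIs, and was 4.35%, 12.4% and 38.4% with haemoglobin genes left out before thinning. Slc2a1 became 5.71% in control replicate 2 and 20.3% with LPS without thinning. Ldha in fibroblast-like cells became 9.33% in control replicate 2 at 500 UMIs, and 41.3% and 55.3% in control replicate 2 and the LPS library without thinning. With Spearman's correlation 1 of 3 genes was shared for Slc2a1 and 1 of 3 for Hif1a. The Gm42418 limit of 20% in fibroblast-like cells and the marker gate in lymphoid-like cells were not run, since they left 4 and 5 barcodes in a library. No paired analysis was possible because 1 LPS library stands against 2 controls and the labels pair none of them. Depth limits low members: a gene with under about 10 UMIs in a sum has a counting interval of several fold.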

Other observations

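The barcodes set aside for Gm42418 also held member transcripts. In the 3659 such barcodes of the LPS library Hif1a was at 358 CPM, Ldha at 106 CPM, Pgk1 at 50.8 CPM and Slc2a1 at 15.7 CPM. The Hif1a value was above that of every tested class of that library but endothelial-like cells (608 CPM), while Slc2a1 was under all 4 tested classes. Only 28 and 0 barcodes of the controls were of this kind, so no control value of use stands beside it. In the 262, 317 and 727 barcodes with at least 50% haemoglobin, including those that failed the other filters, Hif1a was at 2.13, 28.9 and 54.8 CPM and Slc2a1 at 0, 2.63 and 1.40 CPM in control replicates 1 and 2 and the LPS library. Haemoglobin counts in these totals and likewise lowers the CPM of other genes.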
